A study of Mus musculus with 10 samples.

Results

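The 36 genes described here make cholesterol and fatty acids, sense the sterol level of the cell or move sterol out of it. They are a list of names with no threshold on a measured value, set with earlier results of these data known, and make up 36 of the 48795 genes listed. Sterol is built in the endoplasmic reticulum from acetyl-CoA, by way of mevalonate, farnesyl diphosphate, squalene and lanosterol. When membrane sterol is low, the escort protein SCAP carries the SREBP transcription factors to the Golgi, where proteases free them to switch on the enzymes of this route, while INSIG proteins hold the complex back when sterol is plentiful. Oxysterols instead activate the nuclear receptor LXR, which drives sterol export and the gene of SREBP1. The adult brain makes its own cholesterol, and the neural stem cells of the adult subependymal zone (SEZ) are known to use de novo fatty acid synthesis while they proliferate.

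The data are 10 RNA-seq libraries of NSC/NPC cultures derived from the SEZ of mice 10 weeks old, either wild type (WT) or labelled p27KO, that is, mutant for Cdkn1b, the gene of the cell cycle inhibitor p27. Proliferating neurospheres (PRO, 3 DIV, where DIV stands for days in vitro) were floating cultures with 20 ng/ml EGF and 10 ng/ml FGF, and gave 3 WT and 2 p27KO libraries. Differentiating cultures (DIFF, 2 + 1 DIV) had been seeded on Matrigel with FGF for 2 days and were collected 24 h after the mitogens were taken away and 2% foetal bovine serum (FBS) was added, and again gave 3 WT and 2 p27KO libraries. Loss of mitogens, attachment, serum and time in culture changed together between the stages and cannot be told apart. The Cdkn1b mutation was carried in the germline of mice kept on a C57BL/6 J background, and not restricted to a cell type. The labels do not say which animals or cultures the replicates came from, so that p-values measure the spread between these libraries.

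Totals ran from 19190068 to 25291674 counts per library. Cdkn1b itself, which the labels make the mutated gene, was at 103 to 112 CPM, a gene's count scaled to the total of its library, in WT neurospheres and 90.7 to 114 CPM in those labelled p27KO, and at 205 to 209 against 137 to 140 CPM at 2 + 1 DIV. Its RNA was thus not lost in the libraries labelled p27KO, and its level does not check their label in neurospheres. Counts over the whole gene do not show which part of it was deleted. At 2 + 1 DIV it was lower in p27KO by 0.56 on the log2 scale (edgeR adjusted p = 0.012), a call that was lost without p27KO DIFF replicate 1 (adjusted p = 0.114) or 2 (0.152). The free-text descriptions of the p27KO samples name WT cells, whereas their titles and genotype fields name p27KO, which was followed, so that p27KO stands below for libraries so labelled. Xist, expressed from the inactive X chromosome, was at 1.16 to 2.57 CPM in the WT libraries and at 2258 to 3595 CPM in the p27KO libraries, and the 4 Y-linked genes examined were at 31.1 to 171 CPM in WT and at 0 to 0.225 CPM in p27KO. Genotype and sex therefore coincided in these cultures and cannot be told apart. The members Nsdhl and Ebp are on the X chromosome.

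The cells carried the defining markers of neural stem and progenitor cells, whose summed level was 7583 ± 445 CPM (SD, n = 3) in WT neurospheres and 7858 ± 822 CPM (SD, n = 3) at 2 + 1 DIV. Genes are called UP or DOWN at 2 + 1 DIV where the adjusted p was under 0.05 in the two-sided quasi-likelihood test of edgeR, adjusted by Benjamini-Hochberg over all 12859 genes tested, of which 33.5% were UP and 33.9% DOWN in WT. Within the progenitor list of 8 genes, 4 were UP and 2 DOWN in WT, led by Nes, the intermediate filament of progenitors, at a log2 fold change of -3.16, and by Msi1, an RNA-binding protein, at 2.46. Of 6 astrocyte markers, 5 were UP in WT. The remaining 1 was uncalled, with a negative fitted log2 fold change of -0.64, and in p27KO 1 marker was uncalled at -1.155. The sum of the 6 went from 814 ± 56.1 to 2722 ± 354 CPM (SD, n = 3) in WT. In p27KO it went from 925 ± 145 to 2644 ± 137 CPM (SD, n = 2). Gfap, the astrocyte filament gene, and Aqp4, its water channel, had WT log2 fold changes of 7.51 and 6.44. Neuronal markers summed to 1226 to 1477 CPM in WT neurospheres and to 1508 and 1848 CPM in p27KO ones. At 2 + 1 DIV they summed to 1470 to 1712 CPM in WT and to 1997 and 2130 CPM in p27KO. The sum in p27KO thus lay above that in WT at both stages. Of the 5 markers tested, however, 2 had a positive and 3 a negative fitted p27KO difference in neurospheres, and 1 and 4 at 2 + 1 DIV. Dcx, a gene of migrating neuroblasts, was up by 4.61 in WT, while the oligodendrocyte list summed to 196 and 172 CPM in the WT stages, with Mag and Mog at or near 0. Microglial markers summed to at most 0.580 CPM, endothelial ones to at most 10.8 and mural ones to at most 10.7 CPM in any library, and the ependymal list rose from 17.3 to 92.7 CPM in WT through Foxj1, with Tmem212 at or near 0. Of the 3 oligodendrocyte markers tested in WT, 1 was UP and 1 DOWN, and of the 5 neuronal ones 2 were UP, shares to be read beside those over all genes. Cspg4, a proteoglycan of oligodendrocyte progenitors, had a WT log2 fold change of -1.75. Pdgfra, the receptor of oligodendrocyte progenitors, rose by 2.01 in WT, a call that was lost when the replicate number was blocked within genotype (adjusted p = 0.0873), with no filter (0.0855) or without WT PRO replicate 1 or 2 or WT DIFF replicate 1 (0.0537 to 0.0672). In such bulk libraries fewer cells of a type and less RNA per cell cannot be told apart. The part that the rise of 5 of the 6 astrocyte markers played in the changes given here was not tested.

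Of the 36 genes, 35 passed the filter on low counts. Levels were spread over a wide range: per kilobase of exon, and averaged over the 4 groups, Scd2 was highest at 1452 CPM per kb, followed by Hmgcs1 at 296 and Scd1 at 257 CPM per kb, and Tm7sf2 (6.12), Ebp (6.45) and Abcg1 (0.149 CPM per kb) were lowest. In WT cells 25 of the 35 were DOWN and 7 UP at 2 + 1 DIV. Among all genes tested, 33.9% were called DOWN and 33.5% UP. In p27KO cells 24 were DOWN and 7 UP, where the shares over all genes were 30.2% and 27.5%. Each called gene had replicates that did not overlap between the stages: 25 lay wholly below and 7 wholly above in WT, where 35.6% and 36.3% of all genes did, and 24 and 7 in p27KO, where it was 39.8% and 40.0%. The median log2 fold change of the 35 was -1.33 in WT and -1.20 in p27KO, beside a median over all genes of -0.0019 and -0.029. The genes that rose were Abca1, Srebf1, Insig2, Scd1, Scd2, Fads1 and Fads2 in either genotype. No call was made for Elovl5, Nr1h2 and Scap, nor for Acaca in p27KO.

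**Figure D1:**
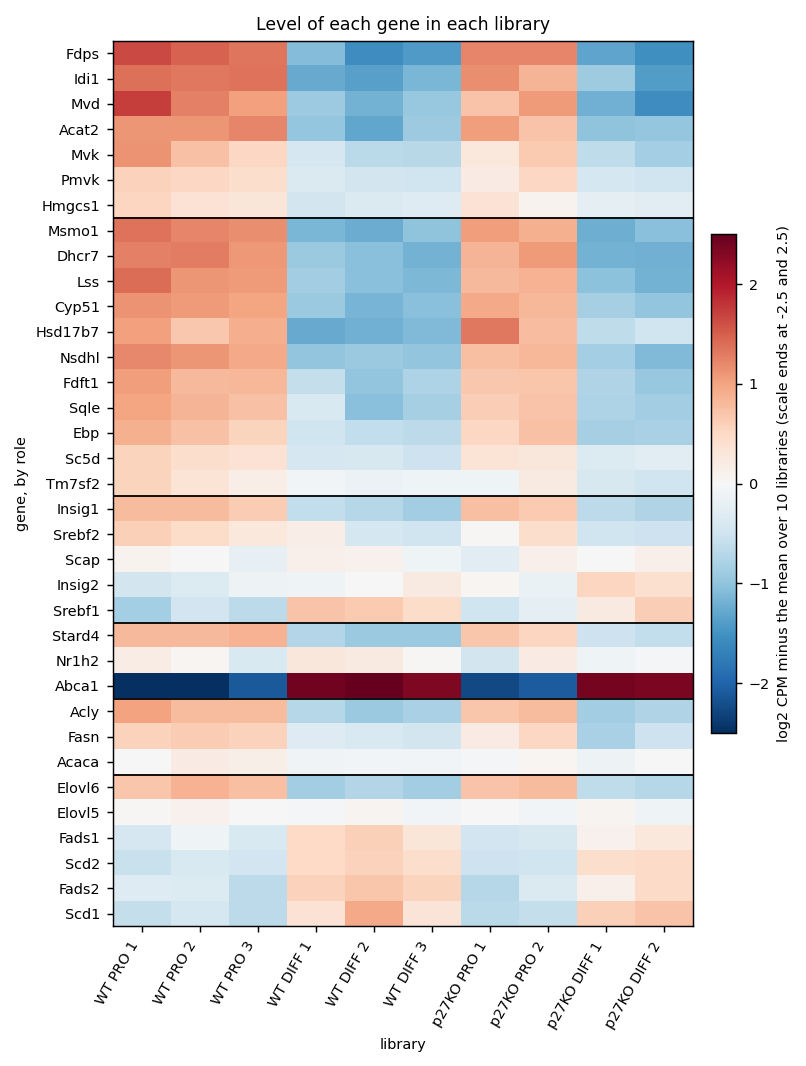
Level of each of the 35 tested genes (rows, grouped by role, with black lines between the 7 enzymes up to farnesyl diphosphate, the 11 from squalene on, sterol sensing, transport, fatty acid synthesis, and desaturases and elongases) in each of the 10 libraries (columns), as log2 CPM minus the gene's mean over the libraries. Apart from Tm7sf2, the enzymes of both cholesterol blocks are red in all PRO and blue in all DIFF libraries, whereas Srebf1, Abca1, Fads1, Fads2, Scd1 and Scd2 show the opposite; Abca1 exceeds the colour scale.

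All 18 enzymes of cholesterol synthesis measured here were DOWN at 2 + 1 DIV, in WT and in p27KO. Their summed level fell from 5539 ± 408 to 1945 ± 51.7 CPM (SD, n = 3) in WT and from 4762 ± 283 to 2038 ± 69.3 CPM (SD, n = 2) in p27KO. The median log2 fold change was -2.06 in WT and -1.72 in p27KO, and with each library left out in turn it stayed between -2.09 and -1.99 and between -1.79 and -1.67. The size of the fall was uneven along the route, from -0.48 for Tm7sf2 to -2.85 for Fdps in WT.

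The 7 genes that lead from acetyl-CoA to farnesyl diphosphate are shared with the isoprenoids used for protein prenylation. Fdps, which joins isoprene units into farnesyl diphosphate (ENSMUSG00000059743, GRCm38 chr3:89093588-89101959, minus strand), had 359, 317 and 290 CPM in WT neurospheres and 53.5, 39.0 and 42.6 CPM at 2 + 1 DIV. The p27KO values were 265 and 267, then 45.9 and 39.4 CPM. Every library of the later stage lay far below those of the earlier stage, and the fall was 7.21-fold in WT (log2 -2.85, SE 0.13, edgeR adjusted p = 1.38e-07) and 6.35-fold in p27KO (-2.67, SE 0.16, 2.3e-06). A predicted gene, Gm43738, overlaps Fdps and shares 26.2% of its stretches of 50 bases, so that some counts could belong to either. Idi1, the isomerase that makes the partner unit for Fdps, went from 431, 415 and 425 to 69.2, 64.5 and 75.6 CPM in WT. In p27KO it went from 370 and 297 to 89.0 and 62.7 CPM. The change was -2.61 in WT (SE 0.14, edgeR adjusted p = 2.55e-07) and -2.16 in p27KO (SE 0.16, 6.91e-06). Of its 50-base stretches 17.7% also occur in Gm13502.

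Mvd, which decarboxylates mevalonate diphosphate, had the widest spread of the 7 among WT neurospheres relative to its level. It had 115, 83.5 and 71.2 CPM in WT neurospheres against 18.6, 15.4 and 18.0 CPM at 2 + 1 DIV, and 56.8 and 72.5 against 15.1 and 11.9 CPM in p27KO. Still the stages did not overlap, with log2 fold changes of -2.39 (SE 0.19) and -2.29 (SE 0.24). Acat2, the thiolase that condenses acetyl-CoA, had 226, 226 and 247 CPM and then 53.7, 42.9 and 56.0 CPM in WT, and 217 and 172, then 52.5 and 54.1 CPM in p27KO. Its log2 fold changes were -2.21 (SE 0.11) and -1.89 (SE 0.13), with 39.1% of its 50-base stretches shared with the paralog Acat3. Hmgcs1, the synthase that makes HMG-CoA, changed least of the block although it was the most abundant per kilobase: 1641 to 1920 CPM became 959 to 1051 CPM in WT, a log2 fold change of -0.80 (SE 0.10), and in p27KO it was -0.53 (SE 0.12). The kinases Mvk and Pmvk, which phosphorylate mevalonate in turn, had WT log2 fold changes of -1.42 and -0.96 and p27KO ones of -1.25 and -0.86.

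The 11 genes from squalene to cholesterol commit the route to sterol. Their sum dropped from 2617 ± 197 to 707 ± 61.2 CPM (SD, n = 3) in WT and from 2261 ± 17.7 to 710 ± 24.2 CPM (SD, n = 2) in p27KO. Fdft1, squalene synthase, opened the block with log2 fold changes of -1.69 in WT and -1.55 in p27KO, though 18.3% of its exon bases overlap Ctsb on the other strand and strand use in counting was not given in the sources used here. Sqle, squalene epoxidase (ENSMUSG00000022351, chr15:59315077-59331192, plus strand), had 437, 397 and 366 CPM in WT neurospheres and 170, 106 and 124 CPM at 2 + 1 DIV. In p27KO it had 340 and 363, then 129 and 120 CPM. Relative to the level WT DIFF was the most spread of its groups, and the falls of 1.60 (SE 0.15, edgeR adjusted p = 1.01e-05) and 1.52 (SE 0.18, 9.57e-05) on the log2 scale were similar in size. Lss, which closes the rings to lanosterol, went from 329, 271 and 264 to 68.9, 60.7 and 57.9 CPM in WT and from 219 and 230 to 61.9 and 55.5 CPM in p27KO, that is, by -2.21 (SE 0.11) and -1.96 (SE 0.14).

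Cyp51, lanosterol demethylase, was the most abundant of the block per kilobase, with 580, 559 and 527 CPM and then 140, 119 and 130 CPM in WT. Its p27KO values were 519 and 478, then 151 and 135 CPM, and the log2 fold changes were -2.11 (SE 0.09) and -1.83 (SE 0.10). The 3 other genes whose products strip methyl groups from the sterol nucleus had similar log2 fold changes in WT. Msmo1, the monooxygenase of that step (ENSMUSG00000031604, chr8:64718139-64733792, minus strand), had 406, 374 and 358 CPM, then 71.9, 67.7 and 79.3 CPM in WT. It had 327 and 298, then 68.1 and 77.0 CPM in p27KO. Its fall was 5.24-fold in WT (log2 -2.39, SE 0.09, edgeR adjusted p = 5.9e-08) and 4.38-fold in p27KO (-2.13, SE 0.11, 1.19e-06). Nsdhl, the decarboxylating dehydrogenase, went from 198, 185 and 164 to 43.6, 45.2 and 43.5 CPM in WT and from 143 and 152 to 47.6 and 39.9 CPM in p27KO, with log2 fold changes of -2.06 and -1.78. Hsd17b7, the ketoreductase, went from 104, 81.9 and 95.5 to 21.4, 22.3 and 23.9 CPM in WT and from 127 and 87.0 to 32.7 and 36.1 CPM in p27KO, with -2.07 and -1.66; its p27KO libraries at 2 + 1 DIV both lay above all WT ones.

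Dhcr7, which reduces 7-dehydrocholesterol to cholesterol, had 294, 298 and 258 CPM in WT neurospheres and 64.0, 58.9 and 54.1 CPM at 2 + 1 DIV. The p27KO values were 221 and 256, then 53.6 and 53.1 CPM. The fall was nearly the same in the genotypes, -2.27 (SE 0.10) and -2.18 (SE 0.12). The sterol isomerase Ebp changed by -1.33 in WT and -1.47 in p27KO (log2), and the desaturase Sc5d by -0.92 and -0.65. Tm7sf2, a sterol reductase whose exons overlap Vps51 on the same strand (12.1% of its bases), moved least, by -0.48 in WT (SE 0.12, edgeR adjusted p = 0.00603) and by -0.54 in p27KO (SE 0.15, 0.0129). Its p27KO call was lost without p27KO PRO replicate 2 (adjusted p = 0.101) or p27KO DIFF replicate 2 (0.0798).

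**Figure D2:**
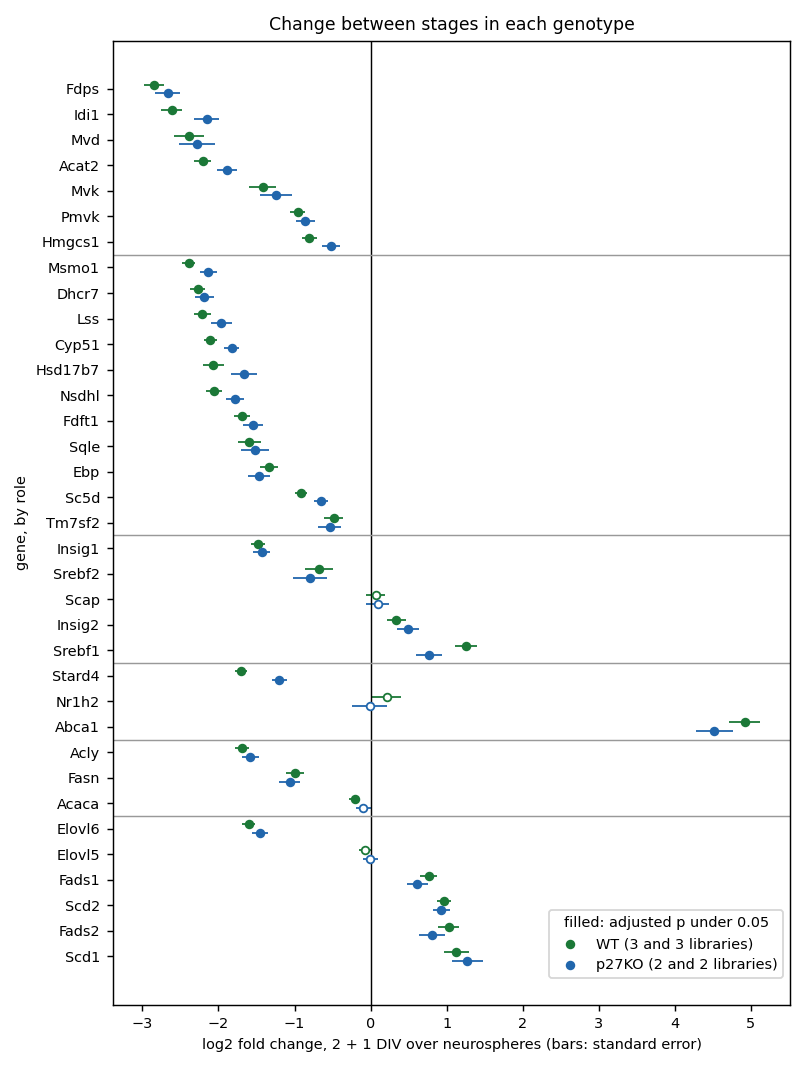
Log2 fold change from neurospheres to 2 + 1 DIV (horizontal axis) for the 35 tested genes by role (vertical axis, grey lines between roles), in WT (green) and p27KO (blue); bars are standard errors and filled points have an adjusted p under 0.05. Both cholesterol blocks lie left of 0 throughout, from -0.48 to -2.85 in WT, and Abca1 stands far to the right at 4.92 in WT and 4.52 in p27KO.

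The promoters of genes that moved together are shown for 3 of the genes that fell and for Abca1, which rose most. Windows of 250 bases before to 50 after a transcription start, from RefSeq (GRCm38.p6), were matched for 28 of the 36 genes. Letters were searched on both strands for the sterol regulatory element bound by SREBPs (TCACNCCAC), the NF-Y box (CCAAT), the Sp1 box (GGGCGG) and an E-box (CACGTG). The first of these matched in Hmgcs1 alone of the 28, as TCACCCCAC at 137 to 129 bases before the start, and in 1.38% of 9539 tested genes with a window and 1.24% of all 32851 promoters. A CCAAT was found in 21 of the 28, beside 43.6% of tested genes and 37.4% of all promoters. These were 18 of 21 genes that fell in WT, 2 of 4 that rose (Srebf1 and Insig2) and the uncalled Elovl5. GGGCGG was found in 22 of the 28 (71.1% of tested genes, 35.7% of all promoters) and CACGTG in 7 (11.8% and 7.15%). By direction, GGGCGG was in 17 of 21 that fell and 4 of 4 that rose, and CACGTG in 4 of 21 and 1 of 4. A gene was counted where any of its windows matched, and 5 of the 28 had more than 1 start. Shares of tested genes were counted likewise, whereas shares of all promoters are by window. No motif overlapped another kind in these windows, and in Fasn a pair of CCAAT matches on opposite strands shared bases. Letters that match a motif describe the sequence and do not show that a factor bound there. Nor does a missing match show that a gene lacks such an element. Only these exact letters were searched, in these windows alone, and 8 of the 36 genes had no window. The windows follow, 5′ to 3′ on the strand of the gene, with every match of these motifs in capitals. Hmgcs1 (chr13:119690101-119690400, plus strand) holds the sterol regulatory element, Msmo1 (chr8:64733529-64733828, minus strand) has CCAAT at 3 places, Insig1 (chr5:28071162-28071461, plus strand) has CCAAT and CACGTG, and Abca1 (chr4:53159846-53160145, minus strand) has no CCAAT.
Hmgcs1: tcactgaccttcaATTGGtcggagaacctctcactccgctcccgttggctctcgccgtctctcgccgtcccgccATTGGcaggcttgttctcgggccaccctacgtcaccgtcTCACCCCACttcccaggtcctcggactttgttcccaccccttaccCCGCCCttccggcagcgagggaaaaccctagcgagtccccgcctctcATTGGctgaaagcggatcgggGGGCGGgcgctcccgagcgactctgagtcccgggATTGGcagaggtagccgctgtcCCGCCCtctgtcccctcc
Msmo1: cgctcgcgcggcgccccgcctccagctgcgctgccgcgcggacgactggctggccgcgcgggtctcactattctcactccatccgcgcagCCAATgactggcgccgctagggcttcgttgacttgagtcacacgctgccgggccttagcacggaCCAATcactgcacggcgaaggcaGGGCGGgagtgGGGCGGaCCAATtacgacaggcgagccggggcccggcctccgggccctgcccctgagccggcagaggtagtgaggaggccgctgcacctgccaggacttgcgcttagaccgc
Insig1: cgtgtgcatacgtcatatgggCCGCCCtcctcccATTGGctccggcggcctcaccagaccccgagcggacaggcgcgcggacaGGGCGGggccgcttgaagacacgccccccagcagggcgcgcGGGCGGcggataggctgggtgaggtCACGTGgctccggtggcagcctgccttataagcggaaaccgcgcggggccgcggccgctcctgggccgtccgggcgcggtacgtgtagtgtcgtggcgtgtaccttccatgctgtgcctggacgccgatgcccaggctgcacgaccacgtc
Abca1: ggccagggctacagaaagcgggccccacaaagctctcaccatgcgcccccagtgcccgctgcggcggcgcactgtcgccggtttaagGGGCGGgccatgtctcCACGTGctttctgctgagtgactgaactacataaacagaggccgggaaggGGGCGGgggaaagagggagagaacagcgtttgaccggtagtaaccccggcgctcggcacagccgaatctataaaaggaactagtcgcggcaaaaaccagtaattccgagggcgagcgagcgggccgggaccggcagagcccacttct

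Sterol-sensing genes did not move as a block. Srebf2 (ENSMUSG00000022463, chr15:82147181-82205379, plus strand), which encodes the SREBP most active on cholesterol genes, had 393, 360 and 313 CPM in WT neurospheres and 295, 194 and 184 CPM at 2 + 1 DIV. In p27KO it had 266 and 355, then 184 and 181 CPM. WT DIFF replicate 1 stood close to the neurospheres, and the log2 fold change was -0.67 in WT (SE 0.19, edgeR adjusted p = 0.00943) and -0.80 in p27KO (SE 0.23, 0.0139). The p27KO call was lost without p27KO PRO replicate 2 (adjusted p = 0.107) or without p27KO DIFF replicate 1 (0.0574) or 2 (0.0666). Srebf1 (ENSMUSG00000020538, chr11:60199089-60222581, minus strand), whose SREBP1c product acts mainly on fatty acid genes, moved the other way. It had 135, 175 and 155 CPM, then 401, 383 and 334 CPM in WT, and 172 and 208, then 284 and 374 CPM in p27KO. The rise was 2.39-fold in WT (log2 1.26, SE 0.14, edgeR adjusted p = 3.32e-05) and 1.70-fold in p27KO (0.77, SE 0.17, 0.0037). Counts over the whole gene do not separate its transcripts.

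The paralogs that hold SCAP in the endoplasmic reticulum also split. Insig1 (ENSMUSG00000045294, chr5:28071363-28078662, plus strand), a known target of SREBPs, went from 437, 433 and 392 to 164, 154 and 137 CPM in WT and from 422 and 397 to 160 and 149 CPM in p27KO. The replicates were tight, and the log2 fold changes were -1.48 (SE 0.09, edgeR adjusted p = 6.45e-07) and -1.43 (SE 0.11, 7.33e-06). Insig2 was far lower (8.09 against 91.9 CPM per kb, averaged over the groups) and had 19.6, 21.1 and 24.6 CPM, then 25, 27 and 31.2 CPM in WT, and 27.9 and 23.8, then 38.8 and 35.3 CPM in p27KO. Its rises of 0.34 (SE 0.12, edgeR adjusted p = 0.0289) and 0.50 (SE 0.15, 0.0153) left the WT stages nearly touching, at 24.6 and 25 CPM. The WT call was lost without WT PRO replicate 1 or 2 or WT DIFF replicate 2 or 3 (adjusted p from 0.0582 to 0.109), and the p27KO call without p27KO PRO replicate 2 (0.0897) or p27KO DIFF replicate 1 (0.0966). Scap itself had 135, 127 and 110 CPM and then 139, 136 and 117 CPM in WT, and 106 and 138, then 126 and 138 CPM in p27KO. The stages overlapped, with log2 differences of 0.07 (95% confidence interval -0.21 to 0.35) and 0.09 (-0.25 to 0.44).

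Abca1, the exporter that loads cholesterol onto apolipoproteins and a known target of LXR (ENSMUSG00000015243, chr4:53030787-53159895, minus strand), rose most. It had 21.5, 25.8 and 37.2 CPM in WT neurospheres and 849, 904 and 814 CPM at 2 + 1 DIV. The p27KO values were 33.5 and 37.9, then 842 and 824 CPM. The rise was 30.2-fold in WT (log2 4.92, SE 0.20, edgeR adjusted p = 8.36e-08) and 22.9-fold in p27KO (4.52, SE 0.24, 1.46e-06). Abcg1, a second exporter under LXR, was the gene that the filter removed: it had 4, 6 and 5 counts in WT neurospheres and 79, 49 and 44 at 2 + 1 DIV, and 4 and 0, then 28 and 39 counts in p27KO. The stages did not overlap, and no test is given for it. Nr1h2, which encodes LXRβ itself, had 33.9, 30.8 and 22.9 CPM, then 36.4, 35.0 and 30.7 CPM in WT, and 21.9 and 34.6, then 27.9 and 29.1 CPM in p27KO. The stages overlapped, with log2 differences of 0.21 (95% confidence interval -0.21 to 0.64) and -0.01 (-0.54 to 0.51). Stard4, a carrier that moves sterol between membranes, went from 193, 193 and 201 to 66.6, 58.0 and 57.6 CPM in WT and from 177 and 160 to 77.2 and 72.2 CPM in p27KO. These falls of 1.70 (SE 0.08, edgeR adjusted p = 1.45e-07) and 1.20 (SE 0.10, 9.02e-06) on the log2 scale lay within the range of those of the cholesterol enzymes.

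**Figure D3:**
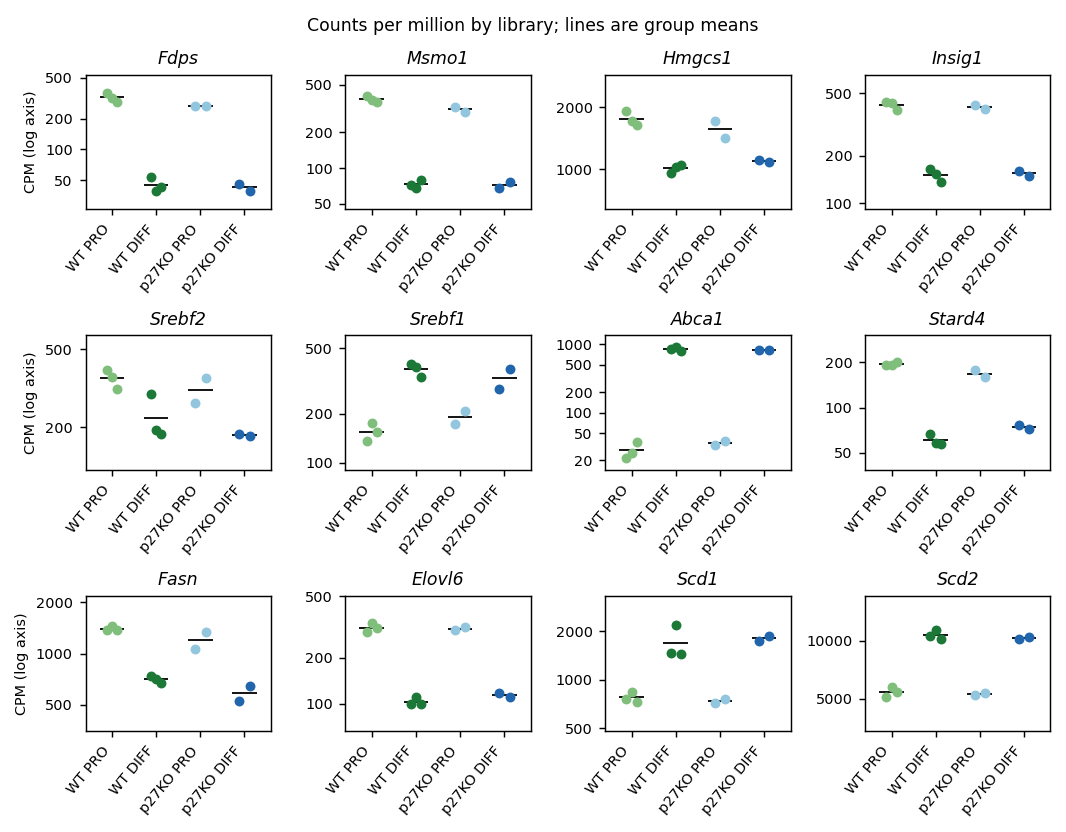
CPM of 12 genes in each library (vertical log axis) by group (horizontal axis); points are libraries and lines are group means. Fdps, Msmo1, Hmgcs1, Insig1, Stard4, Fasn and Elovl6 are lower in every DIFF library than in any PRO library, Srebf1, Abca1, Scd1 and Scd2 are higher, and in Srebf2 WT DIFF replicate 1 at 295 CPM lies above a p27KO PRO library at 266 CPM.

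Of the 3 genes that build saturated fatty acids, Acly and Fasn fell in both genotypes. Acly, which frees acetyl-CoA from citrate for sterol as well as fatty acid synthesis, went from 627 to 734 CPM across WT neurospheres to 191 to 223 CPM at 2 + 1 DIV, with log2 fold changes of -1.69 in WT and -1.58 in p27KO. Fasn, fatty acid synthase (ENSMUSG00000025153, chr11:120805846-120824547, minus strand), had 1379, 1445 and 1384 CPM and then 744, 710 and 674 CPM in WT. In p27KO it had 1064 and 1334, then 528 and 646 CPM. The fall was 1.99-fold in WT (log2 -0.99, SE 0.11, edgeR adjusted p = 3.48e-05) and 2.08-fold in p27KO (-1.06, SE 0.14, 0.000149). Acaca, the carboxylase that makes malonyl-CoA, moved little: 290, 330 and 319 CPM became 271, 273 and 272 CPM in WT, a log2 fold change of -0.21 (SE 0.08, edgeR adjusted p = 0.0331). That call was lost without any of 5 of the 6 WT libraries (all but WT PRO replicate 1; adjusted p from 0.0518 to 0.142), and in p27KO the difference was -0.09 (95% confidence interval -0.31 to 0.12). Gm5182 shares 30.4% of the 50-base stretches of Acaca.

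All 4 fatty acid desaturases rose in both genotypes. Scd1, a stearoyl-CoA desaturase that makes monounsaturated fatty acids (ENSMUSG00000037071, chr19:44394455-44407879, minus strand), had 758, 844 and 727 CPM in WT neurospheres and 1466, 2201 and 1436 CPM at 2 + 1 DIV. The p27KO values were 720 and 755, then 1734 and 1882 CPM. WT DIFF replicate 2 was well above its fellows, and the rise was 2.18-fold in WT (log2 1.13, SE 0.17, edgeR adjusted p = 0.000202) and 2.41-fold in p27KO (1.27, SE 0.20, 0.000538). Scd2, the desaturase that predominates in brain, went from 5127 to 5769 CPM in WT neurospheres to 10189 to 11273 CPM, and rose by 0.96 in WT and 0.93 in p27KO. Fads1 and Fads2, which desaturate polyunsaturated fatty acids, rose by 0.76 and 1.03 in WT and by 0.61 and 0.81 in p27KO. Elovl6, which lengthens palmitate to the substrate of the SCD enzymes, went the opposite way, from 294, 334 and 310 to 99.9, 110 and 100 CPM in WT, or -1.60, and by -1.45 in p27KO. Elovl5, the elongase of polyunsaturated chains, had 256 to 278 CPM and then 246 to 270 CPM in WT, with log2 differences of -0.07 (95% confidence interval -0.25 to 0.11) and -0.0038 (-0.23 to 0.22) in p27KO. With Scd2 so abundant, the summed level of all 36 genes rose from 16850 ± 560 to 19227 ± 1123 CPM (SD, n = 3) in WT although most of them fell.

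Other lipid genes, not part of the 36, had calls in both directions, to be read beside the shares over all genes of 33.5% UP and 33.9% DOWN in WT and 27.5% and 30.2% in p27KO. Of 8 further genes of the SREBP pathway, 1 was UP and 6 DOWN in WT and 0 and 3 in p27KO, led by Tmem97, a sterol-responsive membrane protein, at log2 fold changes of -2.94 and -2.41, and Aacs, which activates acetoacetate for lipid synthesis, at -1.29 and -1.23. Of 9 genes of the isoprenoid branch that leaves the route at farnesyl diphosphate, 2 were UP and 4 DOWN in WT and 1 and 4 in p27KO, led by the ubiquinone genes Pdss1 (-2.23 and -1.61) and Coq2 (-0.67 and -0.57). Of 14 other elongation and acyl-CoA genes, 3 were UP and 6 DOWN in each genotype, with the acyl-CoA synthetases Acsl5 at -2.27 and -1.75 and Acsl6 at 2.06 and 1.69. Of 10 genes of sterol storage and uptake, 4 were UP and 4 DOWN in WT and 2 and 3 in p27KO, with the lipoprotein receptors Scarb1 at -1.97 and -2.09 and Lrp1 at 1.08 and 0.83. Of 12 fatty acid oxidation genes, 7 were UP and 2 DOWN in WT and 5 and 1 in p27KO, with Cpt2, of mitochondrial acyl import, at 1.25 and 0.82 and the dehydrogenase Acadm at 0.86 and 0.99. The median log2 fold changes of these 5 lists in WT were -0.40, -0.12, -0.32, -0.14 and 0.38, beside -2.06 for the 18 cholesterol enzymes. In p27KO, the calls of Aacs without p27KO PRO replicate 2 or p27KO DIFF replicate 2 (adjusted p = 0.0659 and 0.0629) and of Coq2 without p27KO PRO or DIFF replicate 1 (0.0703 and 0.053) were lost. That of Lrp1 was lost when the replicate number was blocked within genotype (adjusted p = 0.0804), with a filter that keeps genes with 1 CPM in at least 4 libraries (0.0549), with no filter (0.197) and without any of 6 libraries (WT PRO replicate 3, WT DIFF replicates 2 and 3, p27KO PRO replicate 1, p27KO DIFF replicates 1 and 2; 0.0517 to 0.253).

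The design also compares the libraries labelled p27KO with WT, to ask whether these genes differ between genotypes. The summed neuronal markers given above were higher in p27KO at both stages. The fitted difference was nevertheless negative for 3 of the 5 tested in neurospheres and for 4 at 2 + 1 DIV. None of the 5 passed either comparison, and the part of these markers in the differences that follow was not tested. The change between stages had the same sign in WT and p27KO for 34 of the 35 genes, Nr1h2, uncalled and of either sign across the alternatives, being the exception, and the median absolute difference between the genotypes was 0.15 on the log2 scale. None of the 35 passed the test of the difference between the changes (the interaction), where 0.389% of all genes did. At an unadjusted p under 0.05 there were 2, beside 4.31% of all genes. These were Stard4, which fell less in p27KO by 0.50 (SE 0.12, unadjusted p = 0.00227, edgeR adjusted p = 0.219), and Idi1, which fell less by 0.46 (SE 0.20, unadjusted p = 0.0497, edgeR adjusted p = 1). DESeq2 called Stard4, with 0.52 and an adjusted p of 0.00662. The share of all genes that DESeq2 called in the interaction is not given here. The 95% confidence intervals of the 35 differences reached from -1.0 at the lowest to 0.91 at the highest, so that differences of that size were not excluded for the least precise genes.

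In neurospheres, none of the 35 genes passed the test of p27KO against WT, where 0.0156% of all genes did, and 3 had an unadjusted p under 0.05, beside 4.69%; DESeq2 called 0. These were Lss at -0.33, Msmo1 at -0.25 and Nsdhl at -0.27 on the log2 scale, all enzymes of the squalene to cholesterol block. The fitted difference was negative for 29 of the 35 genes and for 17 of the 18 cholesterol enzymes, whose median was -0.23 beside -0.0039 over all genes, and Hsd17b7 at 0.22 was the exception. In 13 of the 35 genes both p27KO libraries lay below all WT libraries, beside 10.9% of all genes, and in 0 they lay above, beside 6.94%. These genes share the same 5 libraries and are not replicates of the comparison, and the median of the enzymes ranged from -0.25 to -0.13 with each library left out, the latter without WT PRO replicate 1, the library in which most of these enzymes were highest.

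At 2 + 1 DIV, none of the 35 genes passed the test of p27KO against WT, where 2.04% of all genes did, and 4 had an unadjusted p under 0.05, beside 14.8%. Hsd17b7 was higher in p27KO by 0.62 (SE 0.15, edgeR adjusted p = 0.086), Insig2 by 0.43 (SE 0.13, 0.164) and Stard4 by 0.31 (SE 0.09, 0.128), while Tm7sf2 was lower by 0.32 (SE 0.14, 0.323). DESeq2 called Hsd17b7 (adjusted p = 0.00796) and Stard4 (0.0135), and edgeR called Hsd17b7 without p27KO PRO replicate 1 (adjusted p = 0.0308) or 2 (0.0301). The share of all genes that these other fits called is not given here. In 6 of the 35 genes both p27KO libraries lay above all WT libraries, and in 9 they lay below. The shares of all genes with such a separation at 2 + 1 DIV are not given here either. Differences were positive for 17 and negative for 18 of the 35 genes. The median of the cholesterol enzymes was -0.03, within -0.14 and 0.04 when single libraries were left out. The difference between the stage changes was positive for 16 of the 18 enzymes, with a median of 0.22, which is made from the same libraries as both comparisons of the genotypes and adds no separate evidence; it was 0.11 without p27KO DIFF replicate 1 and 0.12 without WT PRO replicate 1. Genotype and sex cannot be told apart in any of these values.

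**Figure D4:**
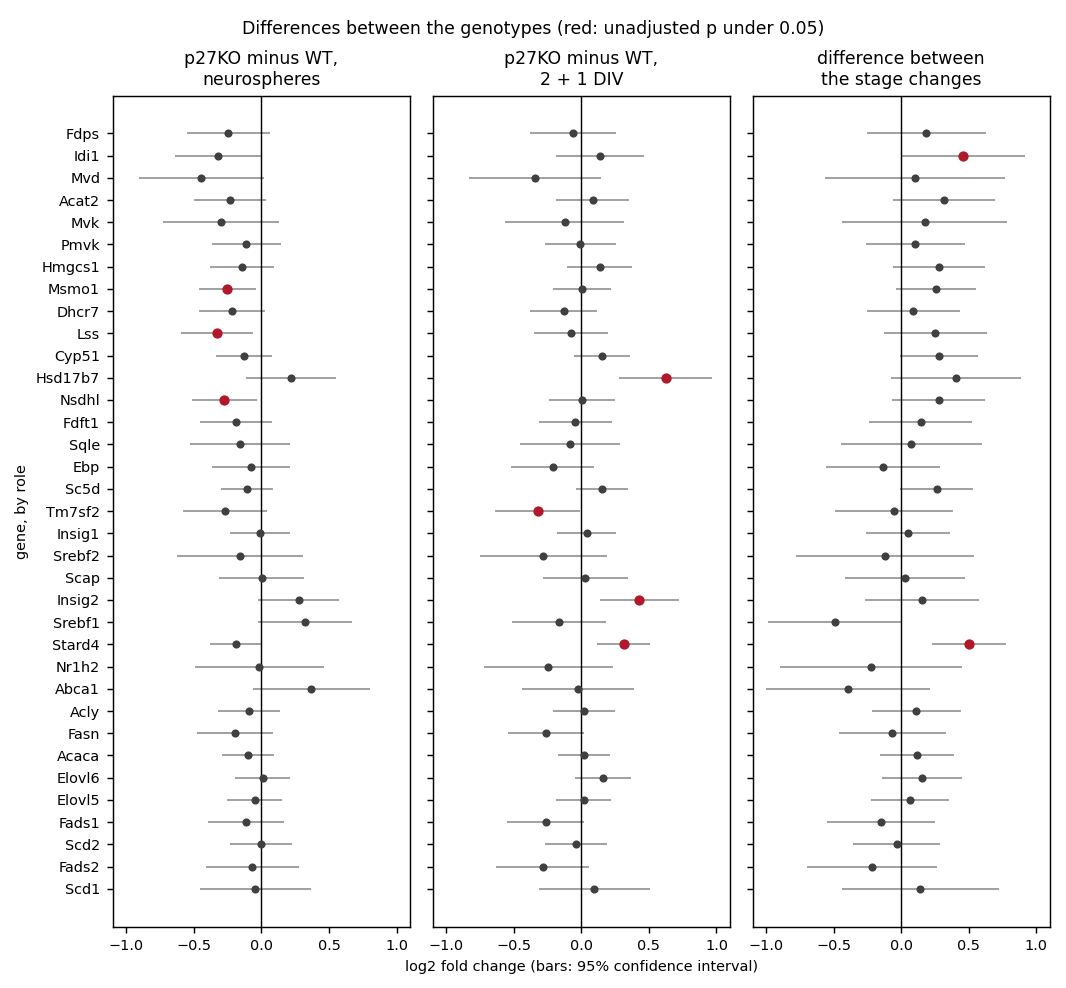
Log2 difference between p27KO and WT in neurospheres (left) and at 2 + 1 DIV (middle), and the difference between the stage changes, p27KO minus WT (right), for the 35 tested genes by role (vertical axis); points are fitted values, bars are 95% confidence intervals, and red marks an unadjusted p under 0.05. In neurospheres 17 of the 18 cholesterol enzymes, the top 18 lines, lie left of 0, with most intervals crossing it, and no gene in any panel passed after adjustment.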

How the data were processed

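Per the paper's methods, the authors aligned reads with STAR to the Ensembl mouse transcriptome and estimated a count per gene with RSEM; the submitters' processing notes also name FastQC, Trimmomatic, cutadapt, GRCm38 and mm10. The deposited values are these estimated counts as whole numbers, not normalized. Strand use was not given in the sources used here, and reads of near-identical genes could be split by RSEM.

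Of 48795 genes, 48349 were matched to a symbol in a GRCm38 annotation. A gene under 1 CPM in 4 or more of the 10 libraries was left out, as in the paper's methods, and the other 12859 were fitted as 4 groups with edgeR 4.0.16 (TMM, robust quasi-likelihood) in R 4.3.3, with Benjamini-Hochberg adjustment and a threshold of 0.05. Log2 fold changes are fitted values, and CPM carry no TMM factors. Replicate spread over 2 or 3 libraries, more than counting, limits the precision. DESeq2 1.42.0 was an alternative.

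Members, lists and the naming rule were chosen with earlier results of these data known. Every member is named, with values in every library for the 12 largest WT changes, the regulators, Scd1, Fasn and Sqle; those of Acaca, Elovl6 and Abcg1 were added after their values were seen. Of each other list the 2 largest called changes with at least 10 CPM are named. 1 gene of a cell type marker list is not reported here and was left out of that list's sum and counts. Same-numbered WT libraries of both stages deviated together (correlations 0.248, 0.301 and 0.395, against -0.221 to -0.0874 for other numbers). They were therefore treated as pairs in a blocked fit, although the labels do not say what the numbers mark. In p27KO the correlation was -0.138 for the same numbers and 0.138 for different ones. With 2 p27KO libraries per stage these values can differ only in sign, so they do not show whether the numbers mark pairs.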

Additional observations from a re-analysis of the deposited data

How the results depend on the processing

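The counts of called genes between stages kept within 1.5 times under each alternative run (DESeq2's size factors, DESeq2, a filter that keeps genes with 1 CPM in at least 4 libraries, no filter, fitting only the groups compared, the replicate block, and the block within genotype, also with the p27KO numbers crossed, an alternative chosen after seeing the data). With the replicate number as a block, 25 members were DOWN and 7 UP in WT and 24 and 7 in p27KO, as without it, and no member changed its call. With single libraries left out, 6 to 7 were UP and 24 to 25 DOWN in WT, 6 to 7 and 22 to 24 in p27KO, and the calls lost are named beside the genes. Between genotypes at 2 + 1 DIV, DESeq2 called 2 members and the fit without a filter 1 (Hsd17b7, 0.64), and 0 to 1 were called with a library left out; in the interaction DESeq2 called 1. The shares of all genes that these runs called between genotypes and in the interaction are not given here. Without a filter, the member Insig2 lost its WT call (adjusted p = 0.127), and so did Pdgfra in WT and Lrp1 in p27KO among the other genes named. The sign of 3 uncalled members turned: Scap in WT was -0.0144 without a filter and -0.00726 to 0.15 with a library left out, and in p27KO -0.10 to 0.32; Nr1h2 in p27KO was 0.0057 with DESeq2's size factors, 0.0054 with DESeq2, 0.018 with only the groups compared, 0.0013 with the replicate block, 0.025 with the block within genotype, 0.023 with crossed numbers, and -0.32 to 0.38 with a library left out; Elovl5 in p27KO was 0.016 with DESeq2's size factors or DESeq2, 0.031 with only the groups compared and -0.10 to 0.088 with a library left out. The difference of Cdkn1b in neurospheres was -0.18 to 0.10 with a library left out. The cause of these moves was not tested. With 2 p27KO libraries per stage, small differences between genotypes could be missed.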
